A study of Homo sapiens with 4 samples.

Results

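The genes that decide what happens to pyruvate in H1975 cells were followed between normoxia and hypoxia. They were the 10 rows of the RNA-seq table whose symbol is LDHA, LDHB, PDK1, PDK2, PDK3, PDK4, PDP1, PDP2, PDHA1 or PDHB, out of 15562 genes, and all 10 were found and passed the filter on low values. H1975 is an established human lung adenocarcinoma line, labelled wild type and grown in medium with serum. One culture was kept for 24 h in normoxia and the other for 24 h in a gas mix of 1% O2, 5% CO2 and 94% N2. Each condition gave 1 RNA-seq library, with 17643836 counts in normoxia and 18943320 in hypoxia. There are therefore no replicates. Every interval below is a 95% interval for counting error alone, and no difference could be set against the spread between cultures.

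Pyruvate is the end product of glycolysis. Lactate dehydrogenase (LDH), a tetramer of the A and B subunits encoded by LDHA and LDHB, interconverts pyruvate and lactate in the cytosol, and the A subunit is the one usually linked to lactate production. The pyruvate dehydrogenase (PDH) complex instead turns pyruvate into acetyl-CoA inside mitochondria. Its E1 component, made of PDHA1 and PDHB subunits, is switched off when a PDH kinase (PDK1 to PDK4) phosphorylates the PDHA1 subunit and switched on again when a PDH phosphatase (PDP1 or PDP2) removes the phosphate. LDHA and PDK1 are well-known targets of hypoxia-inducible factor 1 (HIF-1), which binds a short DNA core, ACGTG or GCGTG, near its targets.

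Of 8 genes known to respond to low oxygen, 7 were called higher in hypoxia by the rule given below. The same rule called 3.41% of all genes tested higher. NDRG1, a stress-response gene, had the only ratio of 2-fold or more, with 1958 counts in normoxia and 5214 in hypoxia. ADM was not called, at a log2 ratio of 0.26 (-0.10 to 0.62). These 8 genes were listed with earlier results of these data known. They are therefore not an independent check of the labels. All 8 epithelial and lung adenocarcinoma markers passed the filter, and their summed level was 9165 in normoxia and 8295 in hypoxia, in CPM (reads scaled to library size). Of 6 leukocyte markers 3 passed, with sums of 242 and 237 CPM, nearly all from CD68, while PTPRC had 0 and 2 counts. Endothelial markers summed to 5.82 and 5.51 CPM, and fibroblast markers to 116 and 121 CPM. The part of such markers in the differences below was not tested. In bulk RNA, fewer cells expressing a gene and less RNA per cell cannot be told apart.

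PDK1 was the single gene of the 10 to pass the rule used here to call a difference, a log2 ratio of at least 0.32 either way with a counting interval that excludes 0. It was called higher in hypoxia. None of the 10 was called lower. Over all 12725 genes tested the same rule called 3.41% higher and 3.29% lower, so a single call among 10 genes is not a result about the set. By the interval alone, with no minimum fold, 4 of the 10 lay above normoxia (PDK1, PDP1, PDK3 and LDHA) and 1 lay below (LDHB). The shares over all genes by that looser rule were 15.0% above and 14.0% below. None of the 10 reached 1.5-fold, which 1.21% of genes did upward and 1.12% downward, or 2-fold, which 0.472% did upward and 0.440% downward. The median log2 ratio of the 10 genes was 0.09, and over all genes tested it was 0.00.

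**Figure D1:**
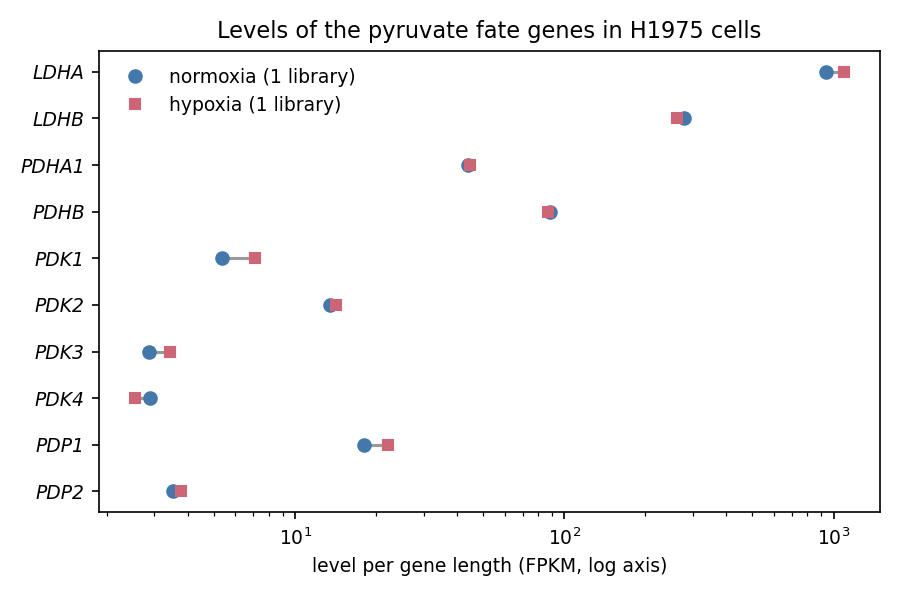
Level per gene length (FPKM, log axis) of each of the 10 genes in the normoxia library (circles) and the hypoxia library (squares), 1 library each. LDHA lies highest at 935 and 1096 FPKM. The hypoxia points of PDK1, PDK3, PDP1 and LDHA lie to the right of their normoxia points, and that of PDK4 lies to the left. The points of the other pairs lie closer together.

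The 10 genes spanned a wide range of levels. On the FPKM scale, which divides counts by gene length and library total, LDHA stood at the top in both libraries, followed by LDHB, PDHB, PDHA1, PDP1, PDK2, PDK1 and PDP2. The lowest places were held by PDK4 and PDK3. In normoxia every neighbouring pair in this order differed beyond counting error except PDK4 and PDK3, at 2.88 and 2.85 FPKM (ratio of the levels 1.01, 0.852 to 1.19). In hypoxia PDK3 stood above PDK4, at 3.44 against 2.54 FPKM (ratio 1.35, 1.15 to 1.60), and it was PDP2, at 3.76 FPKM, that could not be separated from PDK3 (ratio 1.10, 0.979 to 1.22). FPKM uses the gene length behind the deposited values, which for PDK3 is 13074 bases, so these orders depend on that gene model.

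LDHA encodes the A subunit of LDH. It lies on chromosome 11 (18394563 to 18408425, GRCh38.p14) and had 41243 counts in normoxia and 51944 in hypoxia. These are scaled levels of 2330 and 2751 CPM, and the hypoxia library was the higher. Hypoxia stood 1.18-fold above normoxia (1.17 to 1.20), which is 0.24 on the log2 scale (0.22 to 0.26). The interval excludes both no change and the log2 difference of 0.32 used for a call. Because the gene is so abundant, a modest ratio was a large number of transcripts. The gain of 422 CPM was the 4th largest of all 15562 genes, after VIM, EEF1A1 and FTH1, and on the FPKM scale the gain of 162 was the 6th largest. The level of LDHA ranked 60th of all genes in normoxia and 44th in hypoxia by FPKM.

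LDHB encodes the B subunit. It lies on chromosome 12 (21635342 to 21657842) and had 9573 counts in normoxia and 9710 in hypoxia, or 541 and 514 CPM after scaling. The scaled level was slightly lower in hypoxia, at 0.951 of normoxia (0.925 to 0.979) or -0.07 on the log2 scale (-0.11 to -0.03). This sign rests on a small shift: after the trend of log2 ratio with gene length was removed, LDHB was at -0.02 with an interval from -0.06 to 0.02, which includes 0.

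The balance of the LDH subunits does not depend on how the libraries are scaled. There were 4.31 LDHA counts for each LDHB count in normoxia and 5.35 in hypoxia, a change of 1.24-fold (1.20 to 1.28). Per gene length the same ratio was 3.37 and 4.18. LDHA made up 77.1% of the summed LDHA and LDHB FPKM in normoxia and 80.7% in hypoxia. The A subunit was thus the main LDH transcript in both libraries, and its share was larger in hypoxia by more than counting error. LDHA also gained on PKM, the pyruvate kinase that makes its substrate: their count ratio was 0.893 in normoxia and 0.998 in hypoxia, a change of 1.12-fold (1.10 to 1.14).

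The letters before the LDHA and LDHB starts are shown because these 2 genes encode partner subunits and lay on opposite sides of no change. With the length trend removed, the LDHB interval included no change. The sequences are the 250 bases before a RefSeq start (GRCh38.p14), 5′ to 3′ on the gene's strand. Capitals mark the HIF core ACGTG on either strand, which appears as CACGT where it is on the other strand. Where the core lies on both strands at once it reads CACGTG, a palindrome that is also the E-box bound by MYC and other factors.
LDHA, chr11:18394313-18394562, plus strand: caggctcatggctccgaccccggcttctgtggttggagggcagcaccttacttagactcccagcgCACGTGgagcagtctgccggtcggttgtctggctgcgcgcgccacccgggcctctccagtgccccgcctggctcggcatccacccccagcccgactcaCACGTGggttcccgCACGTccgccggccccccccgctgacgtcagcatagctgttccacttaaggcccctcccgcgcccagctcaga
LDHB, chr12:21657843-21658092, minus strand: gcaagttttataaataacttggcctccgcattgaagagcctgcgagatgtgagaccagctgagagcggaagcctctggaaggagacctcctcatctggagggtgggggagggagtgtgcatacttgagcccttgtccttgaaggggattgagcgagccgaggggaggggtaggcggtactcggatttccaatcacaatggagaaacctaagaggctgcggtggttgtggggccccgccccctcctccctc
The LDHA window held ACGTG at 3 separate places, 2 of them CACGTG, and these begin 185, 87 and 73 bases before the start. The LDHB window held none. Of 35116 windows of the same length before RefSeq starts, 18.5% held ACGTG at least at 1 place, 2.61% at 2 or more and 0.35% at 3 or more, and 6.34% held CACGTG. A second RefSeq start of LDHA had no ACGTG in its window. The alternative core GCGTG was in 32.2% of all windows, and it was absent from both windows printed above. These are matches of letters, and binding was not measured.

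**Figure D2:**
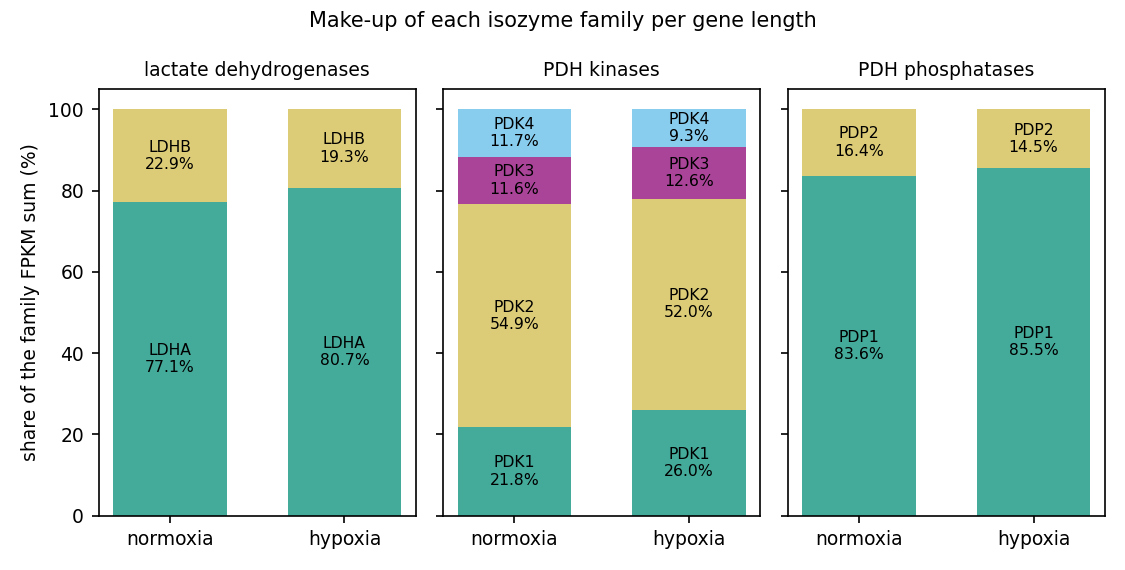
Share of each isozyme in the summed FPKM of its family (%), stacked, in the normoxia and hypoxia libraries (1 each), for lactate dehydrogenases, PDH kinases and PDH phosphatases. LDHA takes 77.1% and 80.7% of the LDH sum, and PDK1 takes 21.8% and 26.0% of the kinase sum, while PDK2 remains the largest kinase share.

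The kinases that switch PDH off did not move as a block. PDK1, on chromosome 2 (172555373 to 172724312), had 504 counts in normoxia and 717 in hypoxia, or 28.5 and 38.0 CPM, with hypoxia the higher. The log2 ratio of 0.42 (0.25 to 0.58), or 1.33-fold, was the highest of the 10 genes. A set of 10739 genes was well counted, with both libraries at 100 counts or above, and PDK1 ranked 122nd of them by log2 ratio, so 1.13% had a higher one.

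PDK3, the kinase gene on chromosome X (24465286 to 24550466), had 658 counts in normoxia and 851 in hypoxia. Scaled to 37.2 and 45.1 CPM it was higher in hypoxia, with a log2 ratio of 0.28 (0.13 to 0.43), above counting error and below the size needed for a call. It was 0.21 with the length trend removed and 0.20 from FPKM with a pseudocount of 1.

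PDK2, a broadly expressed kinase on chromosome 17 (50094737 to 50112152), had 903 counts in normoxia and 1018 in hypoxia. Its log2 ratio was 0.08 (-0.05 to 0.21), which includes no change and excludes 0.32 in both directions. PDK4, the kinase best known as a gene of fasting and fatty acid use, lies on chromosome 7 (95583499 to 95596516) and had 183 counts in normoxia and 173 in hypoxia. Its log2 ratio was -0.17 (-0.48 to 0.13). With so few reads a difference was not detectable, and a log2 difference of -0.32 lies within the interval.

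As a family the kinases summed to 24.6 FPKM in normoxia and 27.2 in hypoxia. PDK2 was the largest part of that sum in both, at 54.9% and 52.0%. PDK1 made up 21.8% in normoxia and 26.0% in hypoxia, PDK3 11.6% and 12.6%, and PDK4 11.7% and 9.32%. In counts, PDK1 stood at 0.289 of the other kinases together in normoxia and 0.351 in hypoxia, a change of 1.22-fold (1.06 to 1.39) that needs no scaling between libraries. PDK1 gained on PDK2 by 1.26-fold (1.09 to 1.46) and on PDK4 by 0.59 on the log2 scale (0.24 to 0.94). Against PDK3 the change was 1.10-fold (0.941 to 1.29), an interval that includes 1.

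The windows of PDK1 and PDK3 are shown because these are the kinases whose intervals lay above no change, with ACGTG on either strand in capitals.
PDK1, start 2 of 2, chr2:172555840-172556089, plus strand: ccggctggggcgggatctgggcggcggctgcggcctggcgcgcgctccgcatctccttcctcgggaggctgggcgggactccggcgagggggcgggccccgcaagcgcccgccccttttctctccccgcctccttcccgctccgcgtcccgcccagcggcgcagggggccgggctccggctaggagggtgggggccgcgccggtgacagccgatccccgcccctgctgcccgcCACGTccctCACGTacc
PDK3, chrX:24465036-24465285, plus strand: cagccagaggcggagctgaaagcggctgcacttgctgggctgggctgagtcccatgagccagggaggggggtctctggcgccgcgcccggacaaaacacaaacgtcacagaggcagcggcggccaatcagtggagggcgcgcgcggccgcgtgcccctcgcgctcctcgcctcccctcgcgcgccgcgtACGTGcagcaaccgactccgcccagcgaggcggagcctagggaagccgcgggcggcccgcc
The PDK1 window held the core at 2 places, beginning 17 and 8 bases before the start, and the window of its other start held none. The PDK3 window held it once, 61 bases before the start. One of 3 PDK2 windows held a CACGTG, and the PDK4 window held no ACGTG.

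The phosphatases that switch PDH back on were not lower in hypoxia. PDP1, the calcium-stimulated phosphatase, had 1439 counts in normoxia and 1905 in hypoxia, or 81.3 and 101 CPM, and was the higher in hypoxia. Hypoxia stood 1.24-fold above normoxia (1.16 to 1.33), or 0.31 in log2 (0.21 to 0.41), just under the size needed for a call. It ranked 309th of the 10739 well-counted genes. PDP2, on chromosome 16 (66880515 to 66891101), had 440 counts in normoxia and 505 in hypoxia, a log2 ratio of 0.11 (-0.08 to 0.29) that includes no change. PDP1 was 83.6% of the summed phosphatase FPKM in normoxia and 85.5% in hypoxia. The count ratio of PDP1 to PDP2 changed by 1.15-fold (0.995 to 1.34).

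A change in the proportion of kinase to phosphatase counts was not detectable. There were 1.20 counts of the 4 kinases for each count of the 2 phosphatases in normoxia and 1.14 in hypoxia, a change of 0.957-fold (0.881 to 1.04). The interval includes 1 and, for counting error alone, reaches up to a gain of the kinases of 1.04-fold. The spread between cultures is not in it. Per gene length the ratio was 1.14 in normoxia and 1.05 in hypoxia, a change of 0.919-fold. For PDK1 against PDP1 alone, the counts stood at 0.350 in normoxia and 0.376 in hypoxia, a change of 1.07-fold (0.939 to 1.23). The 2 genes with the highest ratios of the 10, a kinase and the phosphatase that opposes it, could not be separated at this depth.

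For the E1 subunits that the kinases and phosphatases act on, both intervals included no change. PDHA1, the subunit that carries the phosphorylation sites, is on chromosome X (19343927 to 19361718) and had 2680 counts in normoxia and 2932 in hypoxia, a log2 ratio of 0.04 (-0.04 to 0.11). PDHB, on chromosome 3 (58427630 to 58433832), had 2359 and 2483, a log2 ratio of -0.02 (-0.10 to 0.06). With the length trend removed PDHB was at 0.04, so its sign is not fixed. Both intervals exclude a log2 difference of 0.32 either way. The count ratio of the 2 subunits was 1.14 in normoxia and 1.18 in hypoxia, a change of 1.04-fold (0.962 to 1.12).

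Some regulators gained on the PDHA1 subunit that they act on, and others did not detectably. PDK1 counts were 0.188 of PDHA1 counts in normoxia and 0.245 in hypoxia, a change of 1.30-fold (1.15 to 1.48). PDP1 gained on PDHA1 by 1.21-fold (1.11 to 1.32) and PDK3 by 1.18-fold (1.05 to 1.33). The summed counts of the 4 kinases gained by 1.12-fold (1.04 to 1.21), and their summed levels per gene length by 1.09-fold. For PDK2 the change was 1.03-fold (0.928 to 1.14) and for PDP2 1.05-fold (0.912 to 1.21), and PDHA1 against PDK4 changed by 1.16-fold (0.929 to 1.44), all with intervals that include 1. LDHA, which competes with PDH for pyruvate, gained on PDHA1 by 1.15-fold (1.09 to 1.22).

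The PDHB window is shown because it holds the same letters before a gene whose interval includes no change.
PDHB, chr3:58433833-58434082, minus strand: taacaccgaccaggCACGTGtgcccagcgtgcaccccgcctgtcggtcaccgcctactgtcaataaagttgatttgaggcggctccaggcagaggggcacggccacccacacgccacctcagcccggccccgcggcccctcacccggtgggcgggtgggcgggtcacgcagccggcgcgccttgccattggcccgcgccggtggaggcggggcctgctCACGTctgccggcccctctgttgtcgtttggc
It held ACGTG at 2 places, 1 of them CACGTG, and the window of PDP2 also held it at 2. For the alternative core GCGTG, the PDHB window held 3 matches, and the PDHA1 window held 3 and no ACGTG. The PDK3 window, 1 PDK2 window and the second LDHA window held 1 each. The other windows of these genes held 0. In all, 6 of the 13 windows of these genes held ACGTG, beside the 18.5% of all windows given above. They belong to 6 of the 9 genes with a window. Of these 9 genes, 3 have 2 or more windows, so the count of genes is not comparable with that share. Windows were not matched for base composition. The log2 ratios of the 6 genes ran from -0.02 (PDHB) to 0.42 (PDK1), and those of the other 3 were 0.04 (PDHA1), -0.07 (LDHB) and -0.17 (PDK4). The part of these letters in the ratios was not tested. PDP1 was not among the genes with a window.

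**Figure D3:**
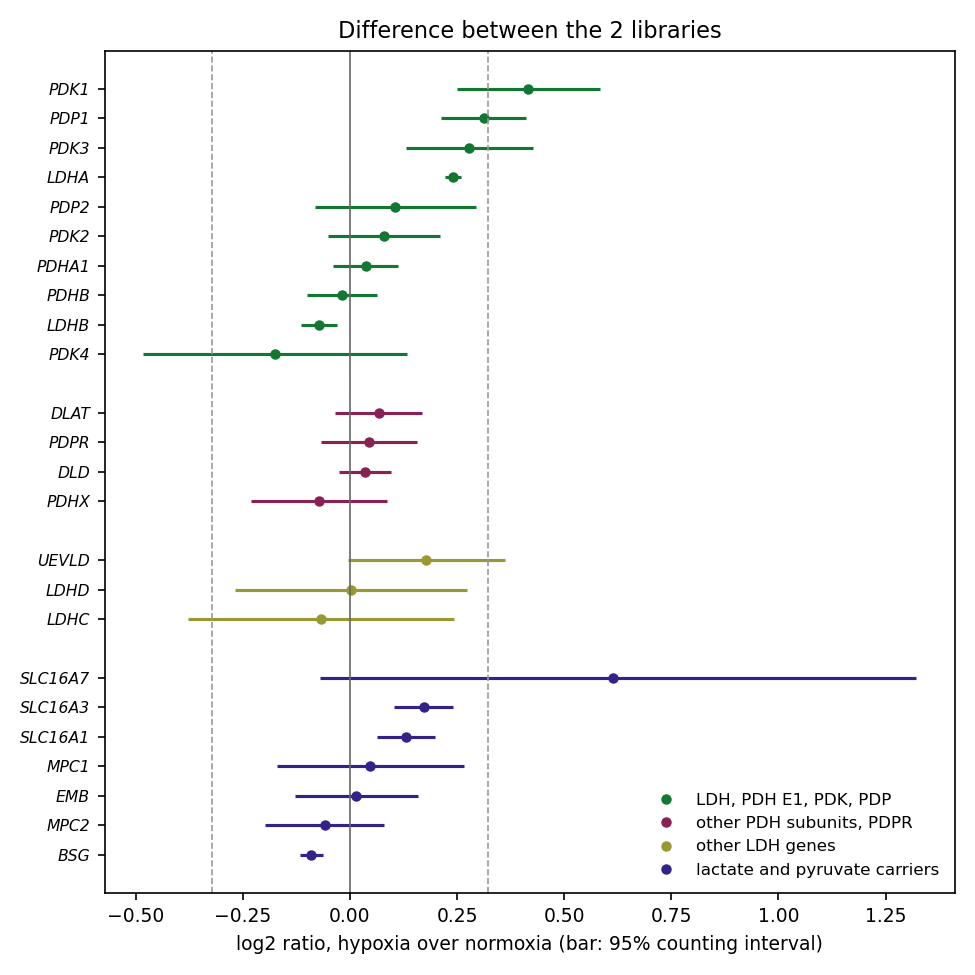
Log2 ratio of hypoxia over normoxia (x axis; points) with its 95% counting interval (bars) for the 10 genes, the other PDH genes, the other LDH genes and the carriers that passed the filter, 1 library per condition. Dashed lines mark a log2 ratio of 0.32 either way. Only PDK1 has both its point past a dashed line and its interval clear of 0, and the other PDH subunits lie around 0.

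All 45 pairs of the 10 genes were also compared within libraries, as the change in their count ratio. In 23 pairs the interval, unadjusted for the number of pairs, excluded 1. When the genes were ordered by log2 ratio (PDK1, PDP1, PDK3, LDHA, PDP2, PDK2, PDHA1, PDHB, LDHB, PDK4), 0 of the 9 neighbouring pairs differed beyond counting error. Neighbours in this order are the closest values by construction. PDK1 differed from LDHA by 1.13-fold (1.01 to 1.27), while PDP1 did not differ detectably from LDHA (1.05-fold, 0.980 to 1.13).

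Among the other genes of the complex, DLAT, the E2 acetyltransferase, was at a log2 ratio of 0.07 (-0.04 to 0.17). DLD, the E3 dehydrogenase shared with other complexes, was at 0.04 (-0.02 to 0.10), and the E3-binding protein PDHX at -0.07 (-0.23 to 0.09). PDPR, the regulatory subunit of the phosphatase, was at 0.04 (-0.07 to 0.16). None of these 4 had an interval that excluded 0. PDHA2 was not analysed here.

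No difference was detectable in the other LDH genes, most of which had few reads. The testis form LDHC had 174 and 177 counts in normoxia and hypoxia, a log2 ratio of -0.07 (-0.38 to 0.24), and the D-lactate dehydrogenase LDHD had 221 and 236. UEVLD, which carries an LDH-like domain, had more reads, with 451 counts in normoxia and 544 in hypoxia. Its log2 ratio was 0.18 (-0.00 to 0.36), an interval that holds the size needed for a call. LDHAL6A had 3 and 0 counts and LDHAL6B 1 and 0, so neither passed the filter.

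Among carriers, 7 of the 8 listed were in the table and passed the filter, and 0 were called. The lactate exporters SLC16A3 (MCT4), at 3145 counts in normoxia and 3779 in hypoxia, and SLC16A1 (MCT1), at 3229 and 3771, lay above counting error with log2 ratios of 0.17 (0.10 to 0.24) and 0.13 (0.06 to 0.20). SLC16A7 (MCT2) had the largest ratio of the carriers on few reads, with 30 counts in normoxia and 49 in hypoxia, a log2 ratio of 0.62 (-0.07 to 1.32) that includes no change. The chaperone BSG lay below it at -0.09 (-0.12 to -0.06). MPC1 and MPC2, which carry pyruvate into mitochondria, were at 0.05 (-0.17 to 0.27) and -0.06 (-0.20 to 0.08).

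Few enzymes around the pyruvate branch point were called. Of 7 other pyruvate enzymes that passed the filter 0 were called, with PKM at 0.08 (0.06 to 0.10), the highest by log2 ratio, and malic enzyme ME1 the lowest at -0.21 (-0.35 to -0.07). Pyruvate carboxylase (PC), the other mitochondrial entry for pyruvate carbon, was at -0.16 (-0.23 to -0.10). Of 16 tricarboxylic acid cycle enzymes 0 were called, with a median of 0.01. Of 5 genes of lipoate attachment, the cofactor that DLAT needs, 1 was called higher (3.41% of all genes tested were): LIPT1, with 63 counts in normoxia and 106 in hypoxia. The related branched-chain complex, whose kinase BCKDK belongs to the same protein family as the PDKs, had 0 of 5 called. Its kinase was at 1442 counts in normoxia and 1491 in hypoxia.

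Of 13 transcription factors and coactivators known to act on some of these genes, 12 passed the filter, 2 were called higher and 1 lower, beside 3.41% and 3.29% of all genes tested. FOXO3 and PPARA were the higher ones. FOXO3 was at a log2 ratio of 0.33 (0.22 to 0.44), just past the size needed for a call. PPARA was at 0.53 (0.02 to 1.04) on few reads, with 56 counts in normoxia and 86 in hypoxia. E2F1 was the lower one at a log2 ratio of -0.48 (-0.61 to -0.34). MYC, a known activator of LDHA, was at -0.30 (-0.33 to -0.27), with 19467 counts in normoxia and 16870 in hypoxia. In the pathway labels of the deposited table, chosen for use here after the file was seen, LDHA, LDHB, PDK1, PDHA1 and PDHB carry the HIF-1 signaling label and the other kinases and both phosphatases do not. Of 85 genes with that label that passed the filter, 7 were called higher and 0 lower, with a median log2 ratio of 0.02, beside shares of 3.41% and 3.29% over all genes tested. Of 34 with the pyruvate metabolism label, 0 were called in either direction, and the median was -0.02.

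**Figure D4:**
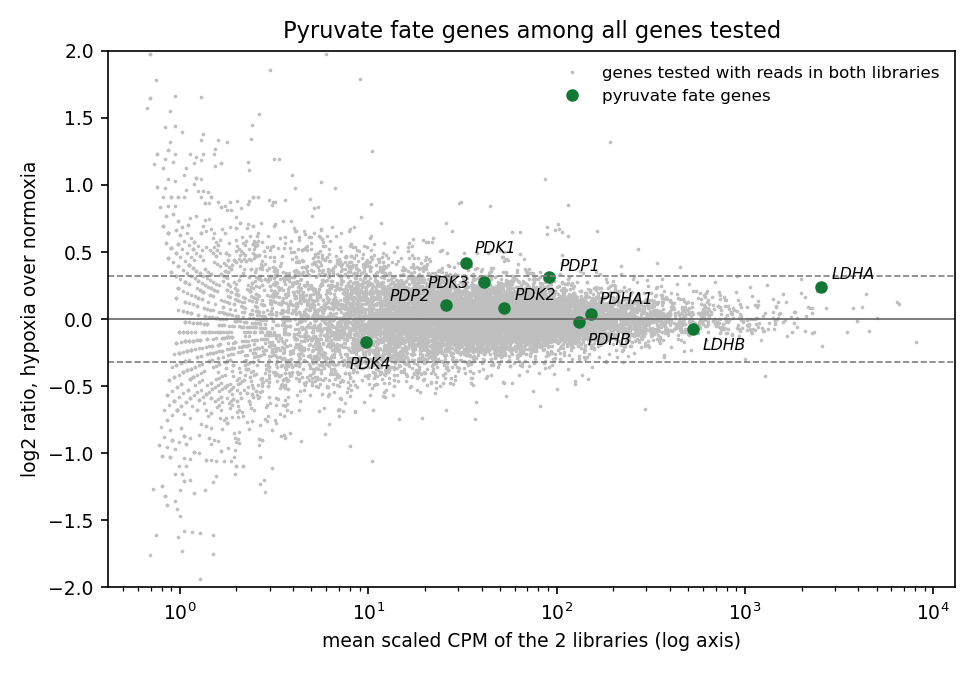
Log2 ratio of hypoxia over normoxia (y axis) against mean scaled CPM of the 2 libraries (x axis, log) for all 12725 genes tested (grey) and the 10 pyruvate fate genes (green). Dashed lines mark a log2 ratio of 0.32 either way, and 10 genes lie outside the plotted range. PDK1 lies past the upper dashed line, and LDHA stands out to the right at the upper edge of genes of its abundance.

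Genes of like abundance give a scale for these ratios. Among the 4975 genes within 2-fold of the mean CPM of PDK1, 39 had a higher log2 ratio. The 3 nearest to it in log2 ratio over these 2 libraries were TRIM2 (457 and 651 counts in normoxia and hypoxia), SEMA5A (264 and 375) and ATXN3 (289 and 412). Among the 52 genes within 2-fold of the mean CPM of LDHA, 2 had a higher log2 ratio. The 3 nearest to it were AHNAK2 at 0.25, SCD at 0.21 and TGFBI at 0.20. With 2 libraries, likeness here means a similar ratio and nothing more.

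Some counts could include or lose reads of other genes. RefSeq names 6 pseudogenes of LDHA, 3 of LDHB, 2 of PDK1 and 1 of PDHA1. None of these names is among the 15562 genes with counts, and how reads shared with them were assigned is uncertain. The span of PDK1 overlaps 2 long noncoding RNA genes, PDK1-AS1 and RAPGEF4-AS1, and that of PDK2 overlaps PDK2-AS1. Spans of PDK2 and PDHA1 also overlap the coding genes SAMD14 (24 counts in normoxia and 14 in hypoxia) and MAP3K15 (12 and 3), whose counts were small beside theirs.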

How the data were processed

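RNA-seq was run on 1 library per condition, from TRIzol extraction and a stranded TruSeq mRNA kit, per the labels' protocols. Trimmomatic, HISAT2, Cufflinks, HTSeq and Bowtie, with GRCh38 as the build, are listed in the submitters' processing notes with no role or version. The sources used here do not state whether strand was used in counting. The authors deposited whole-number read counts per gene, which were used, and FPKM, which equalled those counts divided by the table total and a gene length (whole within 0.01 bases for all 15562 genes). The 2 miRNA-seq libraries were not used.

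Counts were scaled by TMM in edgeR 4.0.16 (R 4.3.3) over the whole table. Ratios carry exact conditional (Clopper-Pearson) 95% intervals from scipy 1.17.1 (Python 3.11.15, numpy 2.4.6, pandas 2.3.3, matplotlib 3.10.9). Changes of a ratio between genes are odds ratios with exact conditional intervals. The reads carry no molecular identifiers, so true errors are larger. Genes tested reached a CPM of 1 in either library. With 1 library per condition no p-value was computed.

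Each of the 10 genes is named. From other lists the rule took complex subunits, LDH genes, carriers, called genes and extremes, and for PDK1 and LDHA the 3 nearest genes within 2-fold of their mean CPM. PC, MYC, BCKDK, CD68 and PTPRC fall outside it and were chosen after their values were seen. The genes and lists were chosen with earlier results of these data known. Alternatives were other scalings (DESeq2 1.42.0, total, upper quartile), FPKM with a pseudocount of 1 or 0.1, no filter or a CPM of 5, removal of a running median over 501 genes along gene length, and other folds. The procedure was tested on simulated data with counting error only, the same error that the intervals assume. The spread between cultures was not part of that test. Coordinates (all 10 genes, by Entrez identifier) and promoter windows (9 genes, by symbol) are from RefSeq, GRCh38.p14.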

Additional observations from a re-analysis of the deposited data

How the results depend on the processing

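No paired analysis was possible because each condition has 1 library, and for the same reason no replicate could be left out. The count of 1 gene called higher (PDK1) and 0 called lower held under DESeq2 size factors, total counts and upper quartile scaling. It also held under both FPKM pseudocounts and removal of the length trend. Neither filter setting could change this count, because both kept the same scaling and all 10 genes pass them. The fold decided it: with the interval alone 4 genes were higher and 1 lower, and with a fold of 1.5 or of 2 the number higher was 0. Of 80 values of single genes under 8 alternatives, counting those under both filters that could not move, 78 stayed within their counting interval. The other 2 were LDHA, at 0.27, and LDHB, at -0.02, both with the length trend removed. PDK1 ranged from 0.35 to 0.42, and PDP1 from 0.29 to 0.31. The changes of LDHA to LDHB, of PDK1 to the other kinases and of PDK1 to PDHA1 stayed within their intervals. Over all genes, FPKM with a pseudocount of 1 called 183 higher and 229 lower, against 434 and 419. Depth limits PDK4 most, and intervals hold counting error only.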
